A study of Mus musculus with 8 samples.

Results

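The 4 ID genes (Id1, Id2, Id3 and Id4) and 3 antagonists of bone morphogenetic protein (BMP) signalling (Bambi, Grem1 and Nog) were followed across 4 culture media. They were chosen by gene symbol, each matched exactly 1 of the 54532 genes in the count table, and all 7 were among the 15470 genes with enough counts to test. The cells were wild-type (WT) mouse embryonic fibroblasts (MEFs), a primary and mixed culture taken from embryos, from which RNA was sequenced at day 4 with 2 libraries per medium. The MEF group stayed in fibroblast medium. All 3 other groups received the cocktail CFAE: CHIR99021, which inhibits GSK-3 and so activates Wnt/beta-catenin signalling; Forskolin, which raises cAMP; AM580, a retinoic acid receptor agonist; and the compound labelled EPZ04777, by its name a DOT1L inhibitor. CFAE+8 also contained A-83-01, CFAE+8+MSC contained MSC2530818, which inhibits the Mediator kinases CDK8 and CDK19, on top of A-83-01, and CFAE+6 contained E-616452 in place of A-83-01. A-83-01 and E-616452 both block the TGF-beta type I receptor. No doses, embryo numbers or passage numbers are given in the labels, nor whether the libraries of a group were separate cultures, so p-values measure the spread between these libraries, which may be technical.

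BMP ligands bind type I and type II receptors that phosphorylate SMAD1, SMAD5 and SMAD9, and these enter the nucleus with SMAD4. Id1, Id2 and Id3 are among the best known genes they switch on. ID proteins have a helix-loop-helix domain without a DNA-binding region, so they pair with E proteins and keep them off DNA, which holds many cell types back from differentiation. Grem1 (gremlin) and Nog (noggin) encode secreted proteins that bind BMP ligands and block them, and Bambi encodes a membrane protein that resembles a type I receptor but has no kinase. Genes of both kinds are often induced by BMP signalling itself, as feedback.

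Promoter sequence was available for Id2, Id3, Id4 and Grem1, that is for 4 of the 7 genes (RefSeq, build GRCm38.p6). The stretches before the RefSeq start of Id2, Id4 and Grem1 are shown, being those left after the removal of untranslated bases described below. They were not chosen by level. Id2, like Id3, had its lowest level in MEF, while Id4 and Grem1 had their highest level there. The Id2 stretch precedes the RefSeq start at 25096092 but lies within an intron of a longer GENCODE transcript, 1 of 3 of the gene, which starts at 25097140. Bases that the GENCODE annotation places in a transcript's untranslated end are left out, which shortens Id2 and removes Id3. Capitals mark matches on either strand to GGCGCC, the palindromic GC-rich element that BMP SMADs are known to bind, to CTTTGA, the core of the TCF/LEF element of Wnt signalling, or to TGACG, the core of the cAMP response element.
Id2 (chr12:25096254-25096342, minus strand): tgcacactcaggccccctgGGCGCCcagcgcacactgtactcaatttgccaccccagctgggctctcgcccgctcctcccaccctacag
Id4 (chr13:48260866-48261115, plus strand): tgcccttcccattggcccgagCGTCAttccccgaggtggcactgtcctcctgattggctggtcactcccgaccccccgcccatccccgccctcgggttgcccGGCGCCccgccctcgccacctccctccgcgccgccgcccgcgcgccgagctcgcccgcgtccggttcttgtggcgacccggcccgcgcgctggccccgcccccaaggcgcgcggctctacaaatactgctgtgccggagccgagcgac
Grem1 (chr2:113758649-113758898, minus strand): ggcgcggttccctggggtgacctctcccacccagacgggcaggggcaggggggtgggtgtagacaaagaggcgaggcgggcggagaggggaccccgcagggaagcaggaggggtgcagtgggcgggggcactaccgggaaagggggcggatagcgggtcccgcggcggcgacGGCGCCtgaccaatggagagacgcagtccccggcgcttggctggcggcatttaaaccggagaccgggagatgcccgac

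GGCGCC occurred 1 time each in the 250 bases before the RefSeq start of Id2, Id4 and Grem1, for Id2 within that intron, and was not found in that window of Id3, while 9.59% of all 32851 promoter windows of this length held it. TGACG occurred 1 time each before Id3 and Id4, against 17.8% of all windows, and CTTTGA in none of the 4, against 13.8%. The 4 windows were richer in G and C than most, at 62.8% for Id2 and Id3, 75.6% for Id4 and 72.0% for Grem1, with a median of 52.4% over all windows. A match describes the letters of the window and does not show that a factor binds there.

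Totals ran from 10958430 to 11913143 counts per library. Levels are given in CPM, the usual RNA-seq unit of counts relative to the scaled library total. A gene passed the test at a Benjamini-Hochberg adjusted p under 0.05 in edgeR, over all genes tested. The 12 fibroblast markers summed to 17410 to 17855 CPM in CFAE+8+MSC, 15104 to 15575 CPM in CFAE+6, 16671 to 16743 CPM in CFAE+8 and 42315 to 43672 CPM in MEF, and none was at 0. Against MEF, 3 of them rose and 8 fell in CFAE+8, and 4 rose and 8 fell in each other cocktail. Thy1, Pdgfra and Lum rose in every cocktail, and P4hb rose in CFAE+8+MSC and CFAE+6. Col1a1, Col1a2, Col3a1, Fn1, Pdgfrb, Vim, Dcn and S100a4 fell in every cocktail. Col1a1 was at 4058 ± 66.6 CPM in CFAE+8 and 14726 ± 382 CPM in MEF. Macrophage markers (10 genes) summed to 19.5 to 38.4 CPM across the cocktail libraries and 183 to 184 CPM in MEF. Mesothelium markers (6 genes) summed to 1.78 to 9.27 CPM across the cocktail libraries and 143 to 147 CPM in MEF, with Lrrn4 at 0 counts in all 3 cocktails and Upk3b in CFAE+8. Cartilage and bone markers (9 genes) summed to 173 to 199 CPM across the cocktail libraries, with Matn1 at 0 in CFAE+8+MSC and CFAE+6 and Bglap in CFAE+8, and 323 to 358 CPM in MEF. Of the 7 tested, 4 were higher and 3 lower in each cocktail than in MEF, and in the lower sum Col2a1 weighed most, at 5.06 ± 0.805 CPM in CFAE+8 and 248 ± 20.3 CPM in MEF, while Ibsp was higher, at 20.8 ± 0.326 CPM in CFAE+8 and 0.283 ± 0.271 CPM in MEF. The sum of endothelium markers (9 genes) moved the other way, with 58.9 to 115 CPM across the cocktail libraries and 20.1 to 20.3 CPM in MEF, where Cldn5 and Tie1 were at 0. Of the 5 tested, 3 rose in each cocktail, namely Esam, Kdr and Cdh5. Esam was at 36.0 ± 3.47 CPM in CFAE+8 and 1.17 ± 0.0356 CPM in MEF. Kdr was at 20.6 ± 1.06 CPM in CFAE+8 and 13.9 ± 0.627 CPM in MEF, and Cdh5 at 4.08 ± 0.139 and 0.838 ± 0.110 CPM. Emcn, at 2.24 ± 0.454 CPM in MEF, fell in each cocktail, and Tek fell in CFAE+6. Epithelium markers (10 genes) summed to 46.8 to 48.9 CPM in CFAE+8+MSC, 40.9 CPM in CFAE+6, 11.4 to 12.5 CPM in CFAE+8 and 21.3 to 24.9 CPM in MEF, with Esrp1 at 0 in CFAE+8 and MEF. The part of these lists in the changes against MEF was not tested. In bulk RNA, fewer cells of a type and less RNA per cell cannot be told apart.

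Id1, Id2 and Id3 were higher in every cocktail than in fibroblast medium, and Id4 and Grem1 were lower in every cocktail. Id1 (ENSMUSG00000042745, mm10 chromosome 2, 152736251 to 152737410) had the largest rise of the family in CFAE+8, and Grem1 the largest fall of all 7 genes. In CFAE+8 against MEF, 3 of the 7 genes rose (Id1, Id2, Id3), 3 fell (Id4, Grem1, Nog) and Bambi did not pass, while 30.8% of all genes tested rose and 31.3% fell. In CFAE+6 against MEF, 4 rose and 2 fell, against 31.6% and 31.5% of all genes, and in CFAE+8+MSC against MEF 5 rose and 2 fell, against 31.9% and 32.2%. These 3 comparisons share the same MEF libraries. In either direction 62.0% of all genes passed the test in CFAE+8, 63.1% in CFAE+6 and 64.1% in CFAE+8+MSC, so passing it did not set the members apart. The median log2 change of the 7 genes was 0.00 in CFAE+8, 0.54 in CFAE+6 and 0.83 in CFAE+8+MSC, beside 0.01, 0.02 and 0.01 over all genes tested.

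**Figure D1:**
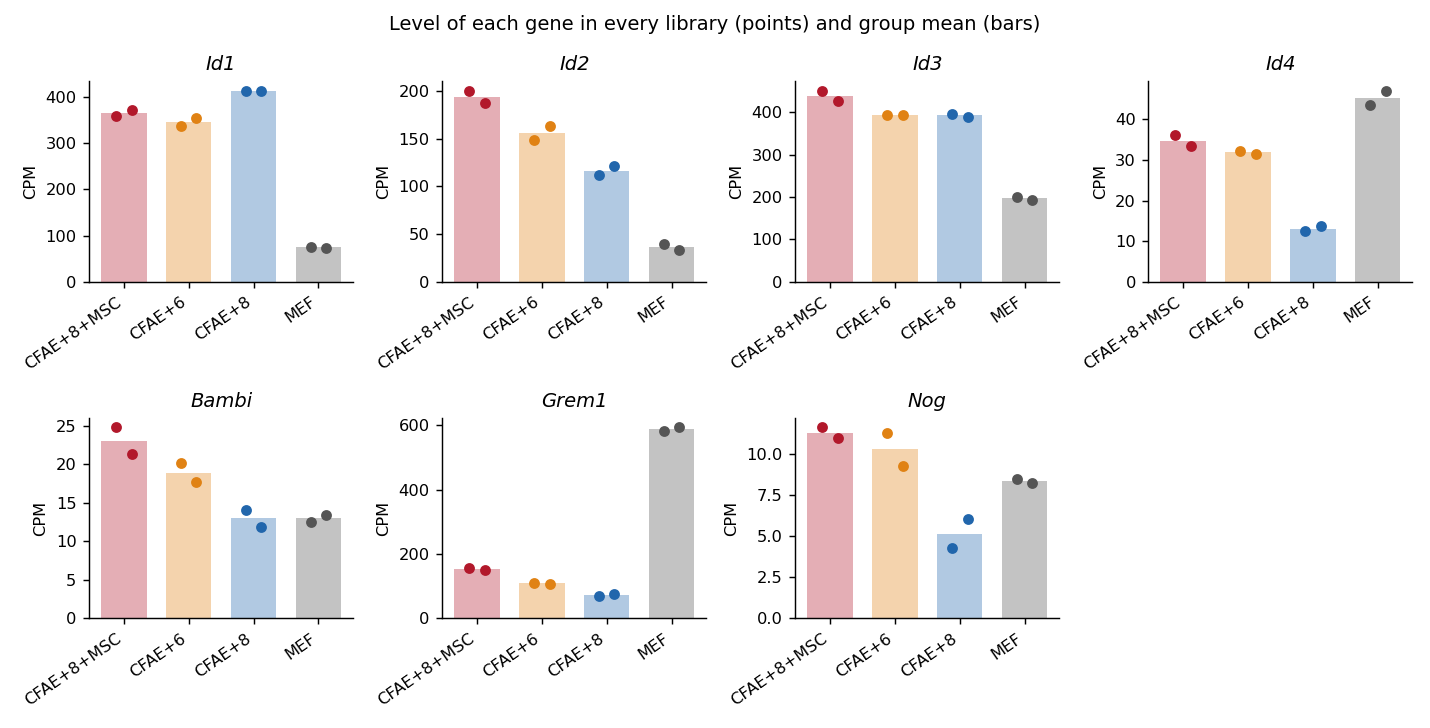
Level of each gene in CPM (vertical axes from 0) in the 2 libraries of each medium (points) with the group mean (bars). Id1, Id2 and Id3 were lowest in MEF, Grem1 was highest there at 587 CPM, and Id4 and Nog were lowest in CFAE+8, at 13.1 and 5.14 CPM.

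Id1 was at 359 and 371 CPM in the CFAE+8+MSC libraries, 338 and 356 CPM in CFAE+6, 413 and 414 CPM in CFAE+8, and 76.0 and 73.0 CPM in MEF. All 6 cocktail libraries thus lay far above both MEF libraries, and CFAE+8 was the highest of the 4 media. The rise over MEF was 5.55-fold in CFAE+8 (log2 change 2.47 ± 0.05 SE, adjusted p = 1.1e-25), 4.65-fold in CFAE+6 (2.22 ± 0.05) and 4.90-fold in CFAE+8+MSC (2.29 ± 0.05).

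Id2 (ENSMUSG00000020644, chromosome 12, 25093799 to 25097140), which besides pairing with E proteins is known for binding the retinoblastoma protein, was at 200 and 187 CPM in CFAE+8+MSC. It was at 149 and 163 CPM in CFAE+6, 112 and 121 CPM in CFAE+8, and 39.6 and 33.5 CPM in MEF. No library of one medium overlapped those of another, and every step in that order passed the test. Against MEF, Id2 rose 5.30-fold in CFAE+8+MSC (log2 change 2.41 ± 0.08, adjusted p = 9.5e-22), 4.26-fold in CFAE+6 and 3.19-fold in CFAE+8 (1.67 ± 0.08, adjusted p = 1.7e-17).

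Id3 (ENSMUSG00000007872, chromosome 4, 136143497 to 136145755), which often acts together with Id1, was at 452 and 428 CPM in CFAE+8+MSC. It was at 395 and 394 CPM in CFAE+6, 396 and 390 CPM in CFAE+8, and 201 and 194 CPM in MEF. The rise over MEF was smaller than that of Id1 or Id2, with 2.23-fold in CFAE+8+MSC (log2 change 1.16 ± 0.05, adjusted p = 8.9e-19), 2.00-fold in CFAE+6 (1.00 ± 0.05) and 1.99-fold in CFAE+8 (1.00 ± 0.05, adjusted p = 3.7e-17).

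Id4 (ENSMUSG00000021379, chromosome 13, 48261228 to 48266026), best known from neural progenitors and mammary epithelium, went the other way from the rest of its family. It was at 36.2 and 33.4 CPM in CFAE+8+MSC, 32.2 and 31.6 CPM in CFAE+6, 12.4 and 13.7 CPM in CFAE+8, and 43.5 and 47.1 CPM in MEF. The MEF libraries were above all others, and both CFAE+8 libraries stood well below those of every other medium. Against MEF the log2 change was -1.79 ± 0.11 in CFAE+8 (adjusted p = 7.2e-15), -0.51 ± 0.09 in CFAE+6 (adjusted p = 3.0e-05) and -0.38 ± 0.09 in CFAE+8+MSC (adjusted p = 8.0e-04). Other annotated genes share 4.44% of the exon length of Id4, and none shares exon bases with the other 6 genes.

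Per length of exon, the family as a whole summed to 649 ± 6.24 CPM per kb in CFAE+8+MSC, 591 ± 14.4 in CFAE+6, 627 ± 1.34 in CFAE+8 and 201 ± 5.71 in MEF (SD, n = 2). Its makeup differed as well. Id1 took 48.5 ± 1.64% of the sum in CFAE+8+MSC, 50.5 ± 0.625% in CFAE+6, 56.9 ± 0.0163% in CFAE+8 and 32.0 ± 0.00852% in MEF. Id3 took between 34.99% and 37.9% in the cocktails and 54.7 ± 0.186% in MEF. The share of Id2 was 12.3 ± 0.476% in CFAE+8+MSC and 10.8 ± 0.428% in CFAE+6, against 7.61 ± 0.394% in CFAE+8 and 7.45 ± 0.669% in MEF. Id4 made up 1.39 ± 0.0668% in CFAE+8+MSC, 1.40 ± 0.0526% in CFAE+6, 0.541 ± 0.0388% in CFAE+8 and 5.86 ± 0.492% in MEF. Id1 and Id3 were thus the main family members by level per length in all 4 media, with Id1 first in the cocktails and Id3 first in MEF.

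**Figure D2:**
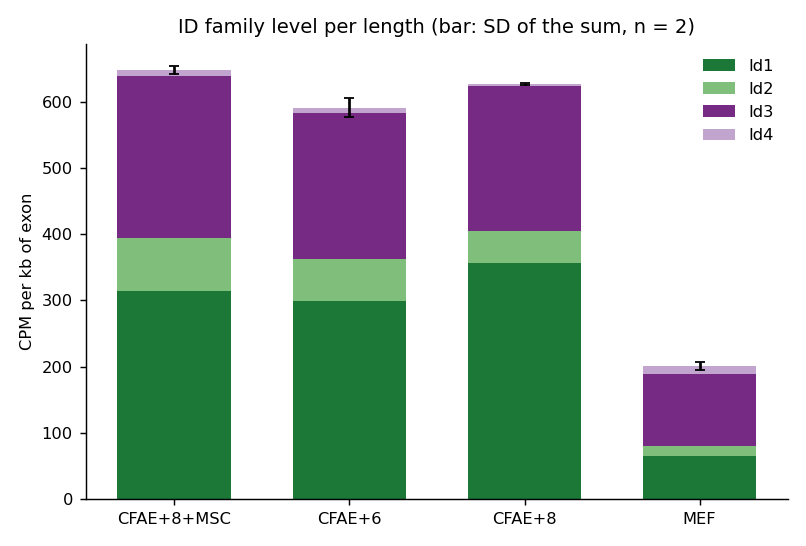
Mean level of the 4 ID genes per kb of exon (vertical axis, CPM per kb), stacked for each medium, with the SD of the sum as an error bar (n = 2). The sum was between 591 and 649 CPM per kb in the cocktails and 201 in MEF, where Id3 was the largest part.

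Among the antagonists, Grem1 (ENSMUSG00000074934, chromosome 2, 113746164 to 113758646) had the largest change of level. It was at 155 and 149 CPM in CFAE+8+MSC, 111 and 107 CPM in CFAE+6, 68.5 and 76.4 CPM in CFAE+8, and 582 and 593 CPM in MEF. The libraries of no medium overlapped those of another. Against MEF the log2 change was -3.02 ± 0.06 in CFAE+8 (adjusted p = 3.8e-27), -2.43 ± 0.06 in CFAE+6 (adjusted p = 3.1e-25) and -1.95 ± 0.05 in CFAE+8+MSC (adjusted p = 3.6e-23).

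Nog (ENSMUSG00000048616, chromosome 11, 89300638 to 89302332) was a low gene, with 50 to 134 counts per library. It was at 11.6 and 10.9 CPM in CFAE+8+MSC, 11.3 and 9.24 CPM in CFAE+6, 4.27 and 6.02 CPM in CFAE+8, and 8.46 and 8.24 CPM in MEF. Both CFAE+8 libraries were below both MEF libraries, and the other cocktails were above them. Against MEF the log2 change was -0.70 ± 0.21 in CFAE+8 (adjusted p = 0.00435), which did not pass without CFAE+8 replicate 1 (-0.47, adjusted p = 0.101). In CFAE+8+MSC it was 0.43 ± 0.18 (adjusted p = 0.0414), a call that was lost without any 1 of the 4 libraries compared (adjusted p between 0.0645 and 0.142) and with DESeq2 (adjusted p = 0.206). In CFAE+6 it was 0.30 ± 0.19 (adjusted p = 0.170), with a 95% interval from -0.09 to 0.68.

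Bambi (ENSMUSG00000024232, chromosome 18, 3507957 to 3516404) was at 24.8 and 21.3 CPM in CFAE+8+MSC, 20.1 and 17.6 CPM in CFAE+6, 14.1 and 11.9 CPM in CFAE+8, and 12.4 and 13.5 CPM in MEF. The CFAE+8 libraries lay on either side of the MEF libraries, and the other 4 cocktail libraries were above all of these. In CFAE+8 against MEF the log2 change was 0.00 ± 0.15 (adjusted p = 0.994), with a 95% interval from -0.30 to 0.31, and its sign turned under several alternatives. Against MEF it was 0.54 ± 0.14 in CFAE+6 (adjusted p = 0.00149) and 0.83 ± 0.14 in CFAE+8+MSC (adjusted p = 6.0e-06).

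By level per length, Grem1 in CFAE+8 was at 17.5 ± 1.36 CPM per kb, behind Id1 at 357 ± 0.657, Id3 at 219 ± 2.14 and Id2 at 47.8 ± 2.57 (SD, n = 2). Id4, Nog and Bambi lay close together in CFAE+8, between 2.58 and 3.39 CPM per kb. For Nog and Bambi the means in CFAE+8 differed by less than the SD of Nog, which was 0.732. In MEF, Grem1 led all 7 genes at 142 ± 1.90 CPM per kb, followed by Id3 at 110 ± 2.75 and Id1 at 64.2 ± 1.84.

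Adding MSC2530818 to CFAE+8 raised 6 of the 7 genes and lowered Id1, and 29.3% of all genes tested passed in that comparison, with 15.6% higher and 13.8% lower. The largest rises were in Id4 and in all 3 antagonists. Id4, Nog and Grem1 had their lowest level in CFAE+8, which by itself places them higher in CFAE+8+MSC, since the same CFAE+8 libraries are used. Bambi in CFAE+8 did not differ from MEF by the test. Id4 was at 34.8 ± 2.00 CPM in CFAE+8+MSC and 13.1 ± 0.963 CPM in CFAE+8, a 2.66-fold difference (log2 change 1.41 ± 0.11, adjusted p = 2.3e-11). Nog was 2.19-fold higher (log2 change 1.13 ± 0.20, adjusted p = 4.3e-05). Grem1 was 2.10-fold higher (1.07 ± 0.06, adjusted p = 1.2e-14), and stayed below MEF.

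Bambi was 1.78-fold higher with MSC2530818 (log2 change 0.83 ± 0.14, adjusted p = 2.1e-05) and Id2 1.66-fold higher (0.74 ± 0.07, adjusted p = 3.2e-10). Id1 and Id3 moved less. Id3 was 1.12-fold higher (0.16 ± 0.05, adjusted p = 0.00782), which did not pass without CFAE+8 replicate 2 (adjusted p = 0.0822) or CFAE+8+MSC replicate 1 (adjusted p = 0.108). Id1 was lower, with a log2 change of -0.18 ± 0.05 (adjusted p = 0.00396), and did not pass without the same libraries (adjusted p = 0.0503 and 0.0581). The median log2 change of the 7 genes was 0.83 and that of all genes tested 0.00. Markers of other cells moved in this comparison as well. Of 10 macrophage markers 2 fell, and the list summed to 21.6 to 22.3 CPM in CFAE+8+MSC and 38.1 to 38.4 CPM in CFAE+8. Of 8 epithelium markers tested 6 rose, and all 10 summed to 46.8 to 48.9 CPM in CFAE+8+MSC and 11.4 to 12.5 CPM in CFAE+8, where Esrp1 was at 0. Of 6 mesothelium markers 3 rose, and they summed to 7.42 to 9.27 CPM in CFAE+8+MSC and 1.78 to 2.39 CPM in CFAE+8. Of 5 endothelium markers tested 3 rose, and all 9 summed to 110 to 115 CPM in CFAE+8+MSC, with Emcn and Tie1 at 0, and 58.9 to 65.6 CPM in CFAE+8, with Tie1 at 0. On the cartilage and bone list 4 of the 7 tested rose and 1 fell. All 9 of these summed to 195 to 199 CPM in CFAE+8+MSC and 173 to 180 CPM in CFAE+8. Among the 12 fibroblast markers 8 rose and 3 fell. The part of these lists in the changes of the 7 genes was not tested.

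Replacing A-83-01 by E-616452 gave higher levels of Id2, Id4 and all 3 antagonists and a lower level of Id1. In CFAE+6 against CFAE+8, 5 of the 7 genes rose and 1 fell, while 26.6% of all genes tested passed, with 14.3% higher and 12.3% lower. This comparison shares the CFAE+8 libraries with the previous one. Without CFAE+8 replicate 2 its count over all genes was 2720, against 4116 with all libraries. Id4 was at 31.9 ± 0.418 CPM in CFAE+6 and 13.1 ± 0.963 CPM in CFAE+8 (2.44-fold, log2 change 1.29 ± 0.11, adjusted p = 2.9e-10). Nog was 1.99-fold higher (0.99 ± 0.20, adjusted p = 3.0e-04), Grem1 was higher as well (0.59 ± 0.06, adjusted p = 1.0e-08) and so was Id2, by 1.34-fold (0.42 ± 0.07, adjusted p = 1.3e-05).

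Bambi was 1.45-fold higher in CFAE+6 than in CFAE+8 (log2 change 0.54 ± 0.14, adjusted p = 0.00421), and did not pass without CFAE+6 replicate 1 (adjusted p = 0.0606) or CFAE+8 replicate 2 (adjusted p = 0.0863). Id1 was at 347 ± 12.7 CPM in CFAE+6 and 414 ± 0.763 CPM in CFAE+8 (log2 change -0.25 ± 0.05, adjusted p = 1.3e-04). Id3 gave a log2 change of 0.00 ± 0.05 (adjusted p = 0.958), with a 95% interval from -0.09 to 0.10, and its libraries overlapped between the media. The median over the 7 genes was 0.54, beside 0.00 over all genes tested. Of 8 epithelium markers tested 5 rose, and all 10 summed to 40.9 CPM in both CFAE+6 libraries and 11.4 to 12.5 CPM in CFAE+8. Of 6 mesothelium markers 2 rose, to 6.68 to 7.23 CPM in sum in CFAE+6 against 1.78 to 2.39 CPM in CFAE+8, and of 5 endothelium markers tested 2 rose, with sums of 91.7 to 101 CPM in CFAE+6, where Emcn was at 0, and 58.9 to 65.6 CPM in CFAE+8. Of 10 macrophage markers 2 fell, Lyz2 and Cd68, and the list summed to 19.5 to 21.5 CPM in CFAE+6 and 38.1 to 38.4 CPM in CFAE+8. On the cartilage and bone list 2 of the 7 tested rose and 1 fell. All 9 of these summed to 187 to 188 CPM in CFAE+6 and 173 to 180 CPM in CFAE+8. Among the 12 fibroblast markers 6 rose and 4 fell. The part of these lists in the changes of the members was not tested.

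The direct comparison of CFAE+8+MSC with CFAE+6 separated the genes that differed between these media from those that could not be told apart. Grem1, Id2 and Id3 were higher in CFAE+8+MSC, none of the 7 was lower, and 4 did not pass, while 10.5% of all genes tested passed, 6.21% being higher and 4.27% lower. Grem1 was at 152 ± 4.60 CPM in CFAE+8+MSC and 109 ± 2.63 CPM in CFAE+6 (log2 change 0.49 ± 0.06, adjusted p = 5.0e-07), and Id2 was at 194 ± 9.40 CPM in CFAE+8+MSC and 156 ± 9.96 CPM in CFAE+6 (0.32 ± 0.06, adjusted p = 0.00105). Id3 differed by 0.16 ± 0.05 (adjusted p = 0.0249), and did not pass without CFAE+8+MSC replicate 1 (adjusted p = 0.239), CFAE+6 replicate 1 (adjusted p = 0.0619) or CFAE+6 replicate 2 (adjusted p = 0.100), nor with only these libraries in the fit (adjusted p = 0.0549). The count over all genes here was 1621 with all libraries, 947 without CFAE+6 replicate 2 and 990 without CFAE+8+MSC replicate 1.

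For the remaining genes the 95% interval of the log2 difference between CFAE+8+MSC and CFAE+6 ran from -0.07 to 0.33 for Id4, from -0.02 to 0.17 for Id1, from 0.02 to 0.56 for Bambi and from -0.23 to 0.50 for Nog, with adjusted p of 0.482, 0.387, 0.169 and 0.712. The order of the media thus differed by gene. It ran CFAE+8+MSC, CFAE+6, CFAE+8 and MEF for Id2, with each neighbouring pair apart. For Grem1 it was the same except that MEF came first. Id1 was highest in CFAE+8, Id4 was highest in MEF, and for Id4, Bambi and Nog the neighbouring CFAE+8+MSC and CFAE+6 groups did not differ by the test.

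**Figure D3:**
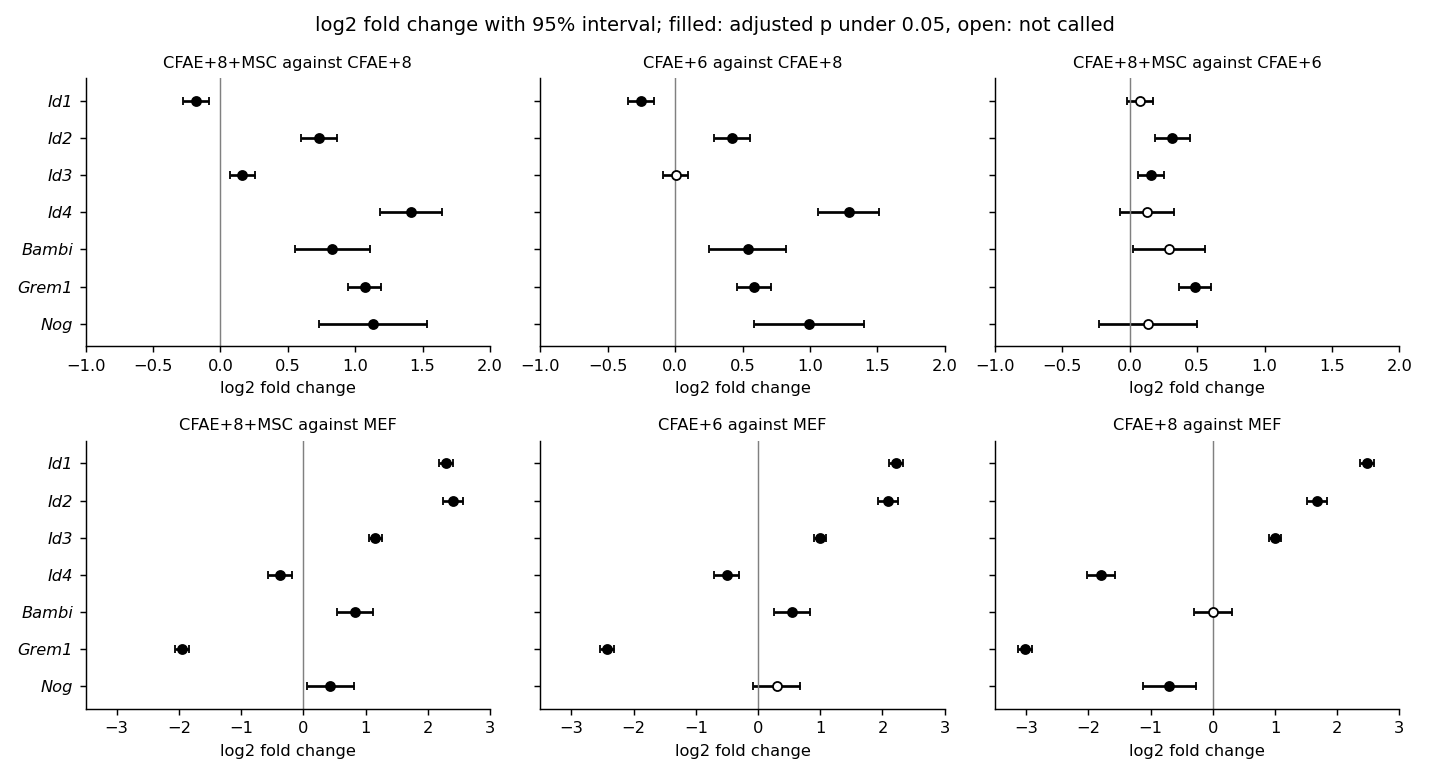
log2 fold change of each gene (points) with its 95% interval (bars) in all 6 comparisons, with filled points where the adjusted p was under 0.05. In CFAE+8+MSC and CFAE+6 against CFAE+8, Id1 lay below 0 at -0.18 and -0.25 and Id4 was the highest, at 1.41 and 1.29.

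Other genes of the pathway were taken from lists, first by their place upstream of the ID genes. Over all genes tested, 30.8% rose and 31.3% fell in CFAE+8 against MEF. In CFAE+8+MSC against CFAE+8 15.6% rose and 13.8% fell, and in CFAE+6 against CFAE+8 14.3% rose and 12.3% fell. The counts of this and the following lists were not tested against these shares. Of 13 genes tested on the ligand list, 4 rose and 5 fell in CFAE+8 against MEF, with a median log2 change of -0.20. The list includes Bmp1, which encodes a protease and not a ligand. Bmp1 was among those that fell, and its log2 change of -0.20 was the median. The others that fell were Gdf6 (-3.00 ± 0.24), Gdf5 (-6.20 ± 0.85), Gdf7 (-2.92 ± 0.45) and Bmp8a (-2.38 ± 0.48). Gdf6 was at 1.83 ± 0.429 CPM in CFAE+8 and 14.7 ± 0.645 CPM in MEF. Bmp2, a classical inducer of ID genes, was at 158 ± 8.72 CPM in CFAE+8+MSC, 197 ± 8.18 in CFAE+6, 282 ± 7.001 in CFAE+8 and 5.64 ± 0.447 in MEF. It had, like Id1, its highest level in CFAE+8 and its lowest in MEF. Bmp7 was at 90.2 ± 1.56 CPM in CFAE+8+MSC, 116 ± 0.0702 in CFAE+6, 79.5 ± 2.23 in CFAE+8 and 1.73 ± 0.243 in MEF. Bmp4 was at 194 ± 3.57 CPM in CFAE+8+MSC, 190 ± 6.48 in CFAE+6, 86.9 ± 4.30 in CFAE+8 and 63.6 ± 5.68 in MEF, with a log2 change against CFAE+8 of 1.16 ± 0.06 in CFAE+8+MSC and 1.13 ± 0.06 in CFAE+6. Of the genes on this list 7 rose and 1 fell in CFAE+8+MSC against CFAE+8, and 6 rose and 1 fell in CFAE+6.

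Of 12 receptor and co-receptor genes, 3 rose and 8 fell in CFAE+8 against MEF, with a median log2 change of -0.51. Eng, the co-receptor endoglin, was at 33.3 ± 4.06 CPM in CFAE+8 and 93.9 ± 6.59 CPM in MEF, and Acvrl1, a type I receptor, at 7.78 ± 0.386 CPM in CFAE+8 and 40.7 ± 2.57 CPM in MEF. With MSC2530818 1 of the 12 receptor and co-receptor genes rose and 4 fell, and in CFAE+6 against CFAE+8 2 rose and 5 fell. Of 12 SMADs and their regulators 4 rose and 5 fell in CFAE+8 against MEF, with a median of -0.12. Smad1 and Smad5, which carry the BMP signal, were among those that rose. Smad1 was at 79.4 ± 3.25 CPM in CFAE+8 and 43.2 ± 8.51 CPM in MEF, and Smad5 at 139 ± 2.14 CPM in CFAE+8 and 90.4 ± 4.05 CPM in MEF. Ski and Smurf1 were among those that fell, with log2 changes of -1.20 ± 0.05 and -0.47 ± 0.06. Ski was at 193 ± 6.17 CPM in CFAE+8 and 442 ± 25.8 CPM in MEF. With MSC2530818 2 of the 12 SMADs and regulators rose and 1 fell, and in CFAE+6 against CFAE+8 1 rose and 6 fell.

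Of 15 other secreted antagonists and modulators, 4 rose and 10 fell in CFAE+8 against MEF, with a median log2 change of -1.15. Crim1, a membrane protein that binds BMP ligands, was at 131 ± 0.951 CPM in CFAE+8+MSC, 104 ± 2.04 in CFAE+6, 68.2 ± 6.81 in CFAE+8 and 297 ± 14.4 in MEF, the same order of media as Grem1. Fst, follistatin, was at 79.9 ± 3.64 CPM in CFAE+8+MSC, 85.3 ± 0.436 in CFAE+6, 48.3 ± 2.55 in CFAE+8 and 186 ± 1.13 in MEF. Kcp, a secreted modulator of BMP signalling, was among those that rose, at 69.9 ± 5.67 CPM in CFAE+8 and 11.6 ± 0.424 CPM in MEF. Of the 15, 5 rose and 3 fell in CFAE+8+MSC against CFAE+8, and 6 rose and 2 fell in CFAE+6.

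Most other genes known as BMP targets were higher in CFAE+8 than in MEF. Of 12 tested, 9 rose and 2 fell in CFAE+8, while 30.8% of all genes tested rose and 31.3% fell. The median log2 change of the 12 was 1.31, beside 0.01 over all genes tested. Msx1, a homeobox factor of limb and craniofacial mesenchyme, was at 333 ± 15.9 CPM in CFAE+8+MSC, 277 ± 11.4 in CFAE+6, 202 ± 0.944 in CFAE+8 and 2.39 ± 0.656 in MEF, the order of media seen for Id2. Hey1 was at 25.1 ± 0.892 CPM in CFAE+8+MSC, 17.1 ± 1.67 in CFAE+6, 11.5 ± 3.24 in CFAE+8 and 0.326 ± 0.0575 in MEF. Smad7, an inhibitory SMAD induced by TGF-beta as well as BMP and also counted among the SMADs, fell in CFAE+6 against MEF (log2 change -0.68 ± 0.07, adjusted p = 1.1e-09). Its mean was below that of MEF in every cocktail. Smad7 was at 79.3 ± 0.827 CPM in CFAE+8+MSC, 57.2 ± 0.330 in CFAE+6, 69.4 ± 0.526 in CFAE+8 and 91.5 ± 6.66 in MEF. With MSC2530818 7 of the 12 rose and 1 fell, and in CFAE+6 against CFAE+8 6 rose and 2 fell.

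The E proteins that ID proteins bind were higher in CFAE+8 along with Id1, Id2 and Id3. Tcf4 was at 589 ± 9.47 CPM in CFAE+8 and 172 ± 8.26 CPM in MEF, Tcf12 at 561 ± 0.571 CPM in CFAE+8 and 165 ± 2.49 CPM in MEF, and Tcf3 at 304 ± 0.723 CPM in CFAE+8 and 158 ± 3.46 CPM in MEF. Of 8 E proteins and other helix-loop-helix partners tested, 6 rose and 2 fell in CFAE+8 against MEF. Hes1, a repressor downstream of Notch, fell, to 11.1 ± 2.18 CPM in CFAE+8, against 81.3 ± 2.84 CPM in MEF, and was at 43.5 ± 2.98 CPM in CFAE+8+MSC and 21.3 ± 2.26 CPM in CFAE+6. Its order of media was that of Grem1. With MSC2530818 3 of the 8 rose and 2 fell, and in CFAE+6 against CFAE+8 4 rose and none fell.

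**Figure D4:**
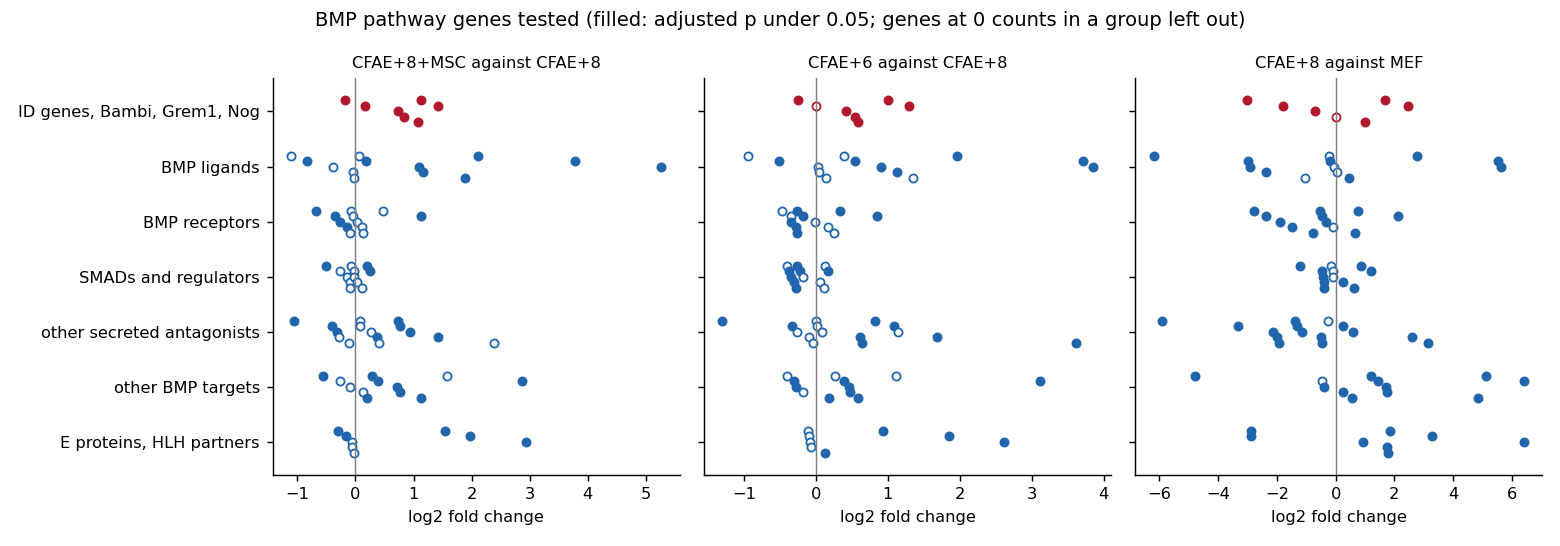
log2 fold change (horizontal axes) of the 7 genes (red, top row) and of the other pathway lists (blue) in 3 comparisons, with filled points where the adjusted p was under 0.05. Against CFAE+8 the red points lay between -0.25 and 1.41, and in CFAE+8 against MEF they spread from -3.02 to 2.47.

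The genes whose pattern over the 8 libraries was most like that of each member were found among 11287 candidate genes, with predicted genes, pseudogenes and small RNA genes passed over, by the root mean square difference of centred log2 CPM, where a smaller value is closer. Id1 was closest to Efna2, which encodes an ephrin ligand (0.0511), Msi1, an RNA-binding protein of progenitor cells (0.0645), and Ahcy, an enzyme of the methionine cycle (0.0650). Id3 was close to Grpel2 (0.0418) and Eps15 (0.0464), and Id2 was closest to Phlda1 (0.0954), Fam83g (0.102) and Ngfr (0.119). Id4 was closest to Igf2, an imprinted growth factor gene (0.0790), which was at 156 ± 6.48 CPM in CFAE+8+MSC, 147 ± 8.47 in CFAE+6, 57.4 ± 3.33 in CFAE+8 and 211 ± 13.2 in MEF, and then to Ddah1 (0.104) and Daam2 (0.131). Bambi was closest to Ccdc85c (0.0974), Tfrc, the transferrin receptor (0.112), and Synm (0.118). Grem1 was closest to Galnt17 (0.132), Podn (0.149) and Clec2d (0.156), and Nog to Jph1 (0.146), Oat (0.147) and Peg10 (0.156). These values describe 8 libraries in 4 groups and carry no test.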

How the data were processed

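RNA-seq libraries were made with a NEBNext Ultra kit, which does not mark strand, per the labels' protocols. The authors deposited raw counts per gene, and featureCounts from Subread, DESeq2 and build mm10 are named in the submitters' processing notes, without versions. For the aligner and annotation release, versions and names were not given in the sources used here. Gene lengths are those in the deposited table, and of its 54532 genes 54409 were found in GENCODE M21. Groups and replicate numbers came from the sample titles. Genes were filtered with filterByExpr and scaled with TMM factors. One mean per group was fitted to all 8 libraries with edgeR 4.0.16 (R 4.3.3), whose quasi-likelihood F test had 4 residual degrees of freedom before sharing across genes. SE is the unshrunken log2 change over the square root of F. The edgeR fit was run first on simulated counts with known changes. Alternatives were RLE and upper-quartile scaling, no filter, DESeq2 1.42.0, fits to only the groups compared, a replicate block and leaving out each library. Within every group the pair of libraries exceeded sampling noise (chi-square per degree of freedom 1.90 to 2.79), and none were merged. Named genes were the 7 members, up to 4 genes per pathway list and comparison with the smallest adjusted p, and the 3 nearest genes per member among those with at least 5 CPM in a group (0.5 counts added). Outside that rule, markers at 0 counts in a group, the 12 fibroblast markers and the 5 endothelium markers tested were named. Tcf3, Bmp1, Gdf5, Bmp8a, Col2a1, Ibsp, Lyz2 and Cd68 were chosen after they were seen. Members and lists were chosen with earlier results of these data known. One of the nearest genes of Id3 is not reported here.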

Additional observations from a re-analysis of the deposited data

How the results depend on the processing

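Of 252 values of the 7 genes under the processing alternatives (scaling, filter, DESeq2, fewer groups, replicate block), 246 kept their direction and side of the threshold. Bambi in CFAE+8 against MEF turned to -0.00611 with RLE scaling, -0.00306 with DESeq2 and -0.00255 with the replicate block. Nog in CFAE+8+MSC against MEF did not pass with no filter (0.433, adjusted p = 0.0548) or DESeq2 (0.430, adjusted p = 0.206), nor did Id3 in CFAE+8+MSC against CFAE+6 with only the 2 groups compared (0.159). The cause was not tested. DESeq2 called 2831 genes in CFAE+8+MSC against CFAE+8 (edgeR 4538), 2525 in CFAE+6 against CFAE+8 (4116) and 885 in CFAE+8+MSC against CFAE+6 (1621).

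Leaving out 1 library kept 318 of 336 values of the 7 genes. The log2 changes then ranged as follows. Bambi ran from -0.122 to 0.123 in CFAE+8 against MEF and from 0.422 to 0.668 in CFAE+6 against CFAE+8. Id1 ran from -0.201 to -0.153 in CFAE+8+MSC against CFAE+8. Id3 ran from 0.125 to 0.205 in CFAE+8+MSC against CFAE+8, from -0.00376 to 0.0157 in CFAE+6 against CFAE+8, and from 0.119 to 0.199 in CFAE+8+MSC against CFAE+6. Nog ran from -0.965 to -0.467 in CFAE+8 against MEF, from 0.396 to 0.485 in CFAE+8+MSC against MEF, and from -0.0010 to 0.287 in CFAE+8+MSC against CFAE+6. Genes called ran from 2720 to 4154 in CFAE+6 against CFAE+8 and from 947 to 1531 in CFAE+8+MSC against CFAE+6. The labels do not say what a replicate number marks. Replicate differences correlated between groups at -0.0224 to 0.0630, which with 1 difference per group cannot show whether same-numbered libraries were paired. The replicate block called 9584 genes in CFAE+8 against MEF and changed no call of the 7 genes. With 2 libraries per group the spread of any 1 gene rests on sharing across genes, and the low counts of Nog limit its precision.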
